A study of Mus musculus with 12 samples.

Results

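The resting transcriptome of mouse bone marrow-derived macrophages (BMDMs) was described in 4 libraries of untreated cells, out of 12 RNA libraries in the series. These 4 libraries were taken because their labels name them controls, 1 library for each of 4 mice. The other 8 libraries came from cells of the same 4 mice that had received 1 μM of the β-adrenergic agonist fenoterol for 1 h or for 4 h (4 libraries each), and they serve here only as a second look at what varied between the mice and as the comparison for the resting levels. All mice were adult C57BL/6J males, bred in-house or bought, and the source of each mouse was not given. Marrow cells were grown for 1 week in RPMI medium with 10% foetal calf serum and 20% conditioned medium of L929 cells, a fibroblast line that secretes the macrophage growth factor M-CSF, and were replated overnight before treatment. Each mouse gave its own culture, so that differences between mice and between cultures cannot be told apart.

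Macrophages are phagocytes that take up particles and dying cells, break them down in lysosomes, present antigen and sense microbes. Bone marrow progenitors become macrophages when M-CSF acts on its receptor, the product of *Csf1r*, under transcription factors such as PU.1 (*Spi1*). In the cAMP pathway, a ligand-bound receptor activates the G protein Gs, whose α subunit (*Gnas*) turns on adenylyl cyclase, and the cAMP made binds the regulatory subunits of protein kinase A (PKA) and frees its catalytic subunits, which phosphorylate targets such as CREB. Phosphodiesterases break cAMP down, Gi-coupled receptors restrain the cyclases, and receptor kinases with arrestins switch off the receptor.

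The deposited values were raw counts per gene, and levels are given as CPM, the counts scaled to a library total of 1000000, or, wherever 1 gene is set against another, as TPM, scaled to the same total after each count was divided by exon length. Untreated libraries held 14580533 to 22580692 counts, so that 3 counts, the most that a true 0 is taken to allow, correspond to 0.133 to 0.206 CPM. A gene was called expressed at 1 CPM or more in all 4 libraries, and not detected with 0 counts in all 4. By this rule 10882 of 53379 listed genes were expressed (20.4%), and they held 99.8% of the counts. A further 793 genes reached 1 CPM in 1 to 3 libraries, 8611 had counts without reaching it, and 33093 had no count in any untreated library. No library stood apart: over the 8249 genes with a mean of at least 10 CPM, Pearson's r of log2 CPM across genes lay between 0.983 and 0.989 for the 6 pairs of libraries (a description across genes, which are not replicates), and the median coefficient of variation was 6.78%. *Xist* had 0 counts in every untreated library and the Y-linked *Ddx3y* stood at 60.1 to 72.5 CPM, as the labelled sex requires.

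Lysosomal and macrophage genes were among the genes with the most counts. The 10 genes with most counts held 10.8% ± 0.251 of all counts (SD, n = 4 mice). *Lyz2* (ENSMUSG00000069516, chr10:117277331-117282321 of GRCm38), which encodes the lysozyme of macrophages and is one of the defining markers, was first with 26327, 24478, 24399 and 25495 CPM in mice 1 to 4. *Ctsb*, the lysosomal protease cathepsin B, followed with 22557, 21389, 22318 and 20557 CPM. *Fth1*, the heavy chain of the iron store ferritin, had 12910.1, 12157, 12121 and 12629.7 CPM. In these 3 genes the mice differed little, with coefficients of variation of 3.64%, 4.22% and 3.07%, and mouse 1 was the highest each time.

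The rest of the 20 genes with the highest CPM fell into a few kinds. Lysosomal proteins and their activators were *Psap* (prosaposin, 10755 to 13033 CPM), *Ctsd* (cathepsin D, 5936 to 6585 CPM), *Grn* (progranulin, 4419 to 4989 CPM) and *Laptm5* (3354 to 3548 CPM). Lipid carriers were *Apoe* (apolipoprotein E) and *Pltp* (phospholipid transfer protein), and both were lower in mouse 1 than in any other mouse, *Apoe* at 4794, 6938, 5143 and 6369 CPM and *Pltp* at 3894, 5174, 4468 and 5017 CPM in mice 1 to 4. Surface receptors were *Csf1r*, *Adgre1* (F4/80), *Sirpa*, the receptor for CD47 (3708 to 4076 CPM), and *Mrc1*, the mannose receptor (2963 to 3259.8 CPM). Host defence was represented by *Mpeg1*, a pore-forming protein of phagosomes (5675 to 6033 CPM), *C1qb* of the complement component C1q (3365 to 4009.6 CPM), and the antigen presentation genes *H2-D1* (3963 to 5278 CPM) and *B2m* (2979 to 4149 CPM). The selenium carrier *Selenop* (7691 to 8497 CPM), the membrane glycoproteins *Gpnmb* (4220.4 to 6138 CPM) and *Itm2b* (4633 to 5206 CPM) completed the list, and 18 of the 20 were among the 20 highest in every one of the 4 libraries. The bar plot of the 20 genes shows how close the mice lay for most of them.

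**Figure D1:**
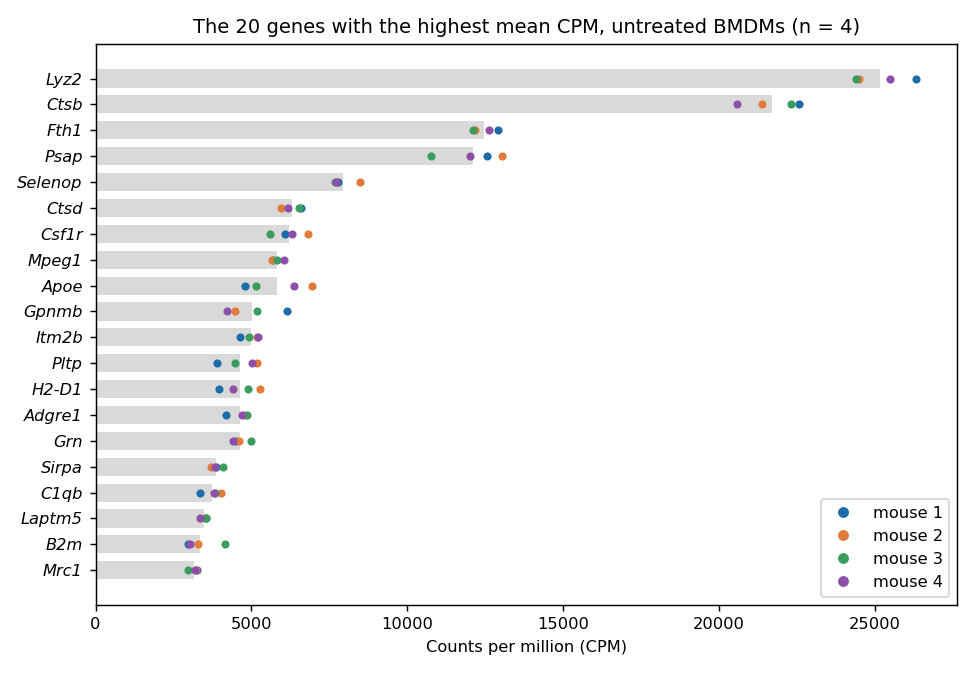
Mean CPM (grey bars) and the CPM of each mouse (points) for the 20 genes with the highest mean CPM in untreated BMDMs. *Lyz2* and *Ctsb* stand well above the rest in all 4 mice, and the widest spreads relative to the mean are those of *Apoe*, *Gpnmb* and *B2m*.

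Per exon length the order changed, and 9 of the 10 genes with the highest TPM were also among the 20 above. *Lyz2* stayed first at 65726 ± 3026 TPM (SD, n = 4 mice). The next in order were *Psap* at 15144 ± 1361 TPM and *B2m*, the invariant chain of MHC class I, at 13425 ± 2012 TPM, and these did not differ beyond their spread. *Fth1*, *Ctsb* and *C1qb* lay between 11838 and 12335 TPM, again within their spreads, and *Selenop*, *Apoe* and *Ctsd* between 9215 and 9575 TPM. The tenth was *Tmsb4x*, which encodes the actin-binding peptide thymosin β4, at 7858 ± 592 TPM. Genes with near-identical copies are uncertain in both rankings, because the sources used here do not say how reads with several matches were counted: 15.4% of the 50-base stretches of *Lyz2* transcripts also occur in *Lyz1*, and 32.4% of those of *Ctsd* in the overlapping annotated transcript *Gm49369*. Ribosomal protein genes, which have many pseudogene copies, held only 0.791% to 0.864% of the counts, and mitochondrial genes 0.704% to 0.871%.

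All 5 defining macrophage markers were expressed in every mouse, matching the labelled cell type. *Csf1r*, the M-CSF receptor, was at 6083, 6802, 5587 and 6294 CPM in mice 1 to 4. *Adgre1*, which encodes the macrophage antigen F4/80, was at 4186, 4789, 4869.7 and 4695 CPM. The lysosomal membrane protein gene *Cd68* was at 2115, 1895, 2009 and 1907 CPM, highest in mouse 1. *Itgam*, the α chain of the integrin Mac-1 (CD11b), was at 459, 485, 466 and 468 CPM, the narrowest of the 5, but 66.3% of its 50-base stretches also occur in the overlapping transcript *Gm49368*, so its level may be understated. Per exon length *Lyz2* was followed by *Cd68* (5416 ± 313 TPM), *Adgre1* (4914 ± 281 TPM), *Csf1r* (3684 ± 319 TPM) and *Itgam* (321 ± 7.71 TPM). *Cd68* and *Adgre1* overlapped, whereas *Csf1r* and *Itgam* were lower than the markers before them in all 4 mice.

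Transcription factors of the lineage were all present, with 16 of 16 expressed. *Spi1* (PU.1) had 477 ± 22.8 TPM, *Nfe2l2* (NRF2, the regulator of antioxidant genes) 399 ± 20.5 TPM and *Irf5* 363 ± 11.2 TPM. *Maf*, a factor of mature macrophages, had 254 ± 18.9 TPM. Of the C/EBP factors, *Cebpa* was at 134 ± 13.9 TPM and *Cebpb*, the factor that inflammatory signals induce, at 21.9 ± 2.88 TPM. *Egr2*, *Klf4* and *Bhlhe40* were the lowest of the list, at 15.97, 11.6 and 5.93 TPM. The median SD of log2 CPM over the members with a mean of at least 10 CPM was 0.07, against 0.0981 for all such genes.

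Of the phagocytic and surface receptors, 26 of 27 were expressed. The signalling adaptors *Tyrobp* (DAP12, 7562 ± 201 TPM) and *Fcer1g* (the Fc receptor γ chain, 4039.8 ± 332 TPM) were the highest, together with *Sirpa* (2705 ± 91.3 TPM) and the IgG receptor *Fcgr3* (2334 ± 162 TPM). Among receptors for dying cells and lipids, the scavenger receptor *Cd36* had 1300.4 ± 159 TPM, *Stab1* 1043 ± 137 TPM, *Trem2* 697 ± 58.9 TPM, *Mertk* 157 ± 8.09 TPM and its relative *Axl* 24.8 ± 2.96 TPM. The chemokine receptor *Cx3cr1* was at 12.98, 15.02, 12.5 and 19.97 CPM in mice 1 to 4. *Ly6c2*, the marker of inflammatory monocytes, was the one member below the level of expression, at 0.177 to 0.892 CPM. Lysosomal and secreted products were expressed in 29 of 29 cases and together made up 97458 to 102157 CPM of a library, with *Ctss* (7194 ± 963 TPM), *Lgals3* (galectin-3, 5155 ± 449 TPM) and the 3 chains of C1q (*C1qa* at 3690.3 ± 495 TPM, *C1qb* at 11838 ± 793 TPM and *C1qc* at 3901 ± 352 TPM) among the highest.

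Markers of other cell types were low or absent, with a few named exceptions. Of the dendritic cell markers 0 of 8 were expressed, with a summed level of 1.74 to 3.59 CPM and *Ccr7* not detected. Of the mast cell, basophil and eosinophil markers 0 of 8 were expressed (1.12 to 1.46 CPM in sum). The B cell list had 1 of 7, the signalling chain *Cd79b* at 7.01 to 10.2 CPM, while its partner *Cd79a* stood at 0 to 0.0497 CPM and *Pax5* was not detected. The T and NK cell list had 1 of 8, *Cd4* at 28.9 to 38.9 CPM, while *Cd3g* and *Cd8a* were not detected and *Cd3e* was at 0 to 0.0561 CPM. The adult globin genes of the list had 0 counts, and 1 of 10 of the erythroid and megakaryocyte markers was expressed, the platelet chemokine gene *Ppbp* (1.64 to 3.37 CPM).

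Granule genes of neutrophil precursors were detected in all mice, with 5 of 11 markers expressed and a summed level of 76.7, 57.7, 52.8 and 42.1 CPM in mice 1 to 4. *S100a9*, a subunit of calprotectin, had 22.5, 16.7, 17.8 and 12.2 CPM, and *Ngp*, a granule protein, had 16.5, 13.3, 11.2 and 8.19 CPM. Mouse 1 was the highest and mouse 4 the lowest in both, and *Ly6g*, which defines mature neutrophils, stood at 0 to 0.0497 CPM. Collagen genes of stromal cells showed the same order at its ends: the fibroblast and endothelial list had 5 of 12 genes expressed and summed to 78.4, 63.99, 57.1 and 27.5 CPM, with *Col1a1* at 24.9, 24.1, 16.8 and 9.31 CPM and *Col1a2* at 35.3, 25.2, 24.9 and 10.1 CPM. The fibroblast genes *Lum* (not detected), *Dcn* (0 to 0.354 CPM) and *Pdgfra* (0.112 to 0.354 CPM) were at or near 0. In bulk RNA such as this, fewer cells of a type and less RNA per cell cannot be told apart. The osteoclast list had 4 of 7 genes expressed, of which *Nfatc1* (56.4 ± 1.93 TPM) stood above the protease and phosphatase of mature osteoclasts, *Ctsk* (7.41 ± 2.84 TPM) and *Acp5* (5.67 ± 0.89 TPM).

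**Figure D2:**
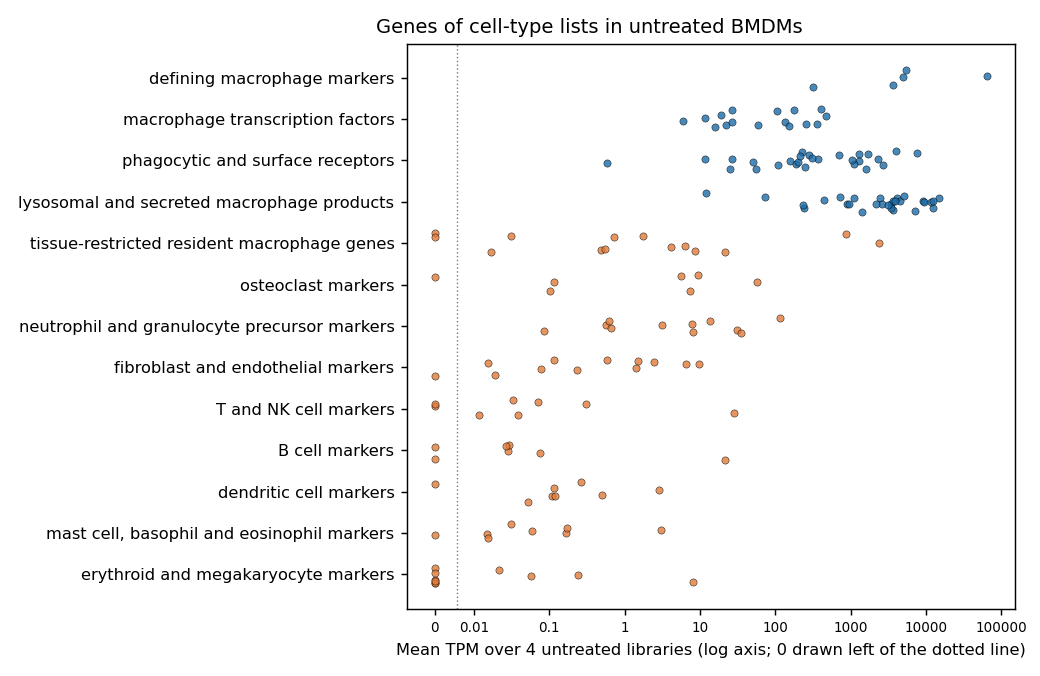
Mean TPM over the 4 untreated libraries (log axis) of each gene in the macrophage lists (blue) and in lists of other cell types or of macrophages of single tissues (orange), 1 point per gene. Macrophage genes lie mostly above 10 TPM, other lists mostly below 10 TPM, with *Cd5l* and *Folr2* (2358 and 874 TPM) as the highest points of the tissue-restricted list.

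Of the genes that mark resident macrophages of single tissues, 7 of 14 were expressed. *Cd5l*, a secreted scavenger receptor of macrophages in liver and spleen, was at 1329.6, 1555, 1370.0 and 1337 CPM in mice 1 to 4. *Folr2*, the folate receptor β, was at 386, 339, 543 and 308 CPM, although 63.1% of its exon bases are also covered by a gene on the other strand and the strand option of the counting was not given. *P2ry12*, a marker of microglia, was at 13.9 to 17.7 CPM. *Marco* (2.61 to 8.09 CPM), *Spic* (5.85 to 7.85 CPM), *Cd163* (5.8 to 7.06 CPM) and *Siglecf* (1.12 to 1.77 CPM) were expressed at low levels. In contrast *Gata6* (peritoneal macrophages) and *Sall1* (microglia) were not detected, and *Clec4f* (Kupffer cells), *Lyve1*, *Vsig4*, *Timd4* and *Tmem119* all stayed below 1 CPM.

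The cells carried little of either activation programme. Of the classical activation genes 6 of 12 were expressed and summed to 65.01 to 84.7 CPM: *Tnf* was at 11.1 to 15.1 CPM, *Il1b* at 2.58 to 5.76 CPM and the costimulatory genes *Cd86* and *Cd80* at 26.04 to 39.4 and 9.33 to 11.8 CPM, while *Il6*, *Il12a* and *Il12b* were not detected and *Nos2* was at 0 to 0.0686 CPM. Of the alternative activation genes 4 of 9 were expressed and summed to 41.98 to 59.1 CPM. The lectin gene *Clec10a* was the highest of them at 42.3 ± 10.7 TPM, the chitinase-like *Chil3* was at 12.2 ± 3.56 TPM, and the resistin-like *Retnla* (0 to 0.0686 CPM) was below 1 CPM. *Mrc1*, often counted with this programme, was by contrast among the 20 genes with most counts. The immediate early genes were not silent: 9 of 10 were expressed, with the stress-induced repressor *Atf3* at 253, 245, 268 and 239 CPM in mice 1 to 4, *Jun* at 69.3 to 78.9 CPM and *Fos* at 24.8 to 34.3 CPM, but *Egr1* at 1.12 to 2.75 CPM and *Fosb* at 0.281 to 0.646 CPM.

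Receptors for catecholamines were then examined, since the study stimulated these cells through the β-adrenergic route. Of the 8 adrenergic receptor genes considered, 1 was expressed and 5 had 0 counts in all 4 untreated libraries. The expressed gene was *Adra1a*, a receptor that couples to Gq rather than Gs, at 42.96, 22.4, 27.2 and 31.8 CPM in mice 1 to 4, highest in mouse 1 and lowest in mouse 2. *Adrb1* was at 0 to 0.0686 CPM and *Adra2a*, which couples to Gi, at 0.0686 to 0.224 CPM, around or below the level of 3 counts. *Adrb3*, *Adra1b*, *Adra1d*, *Adra2b* and *Adra2c* were not detected, which at this depth allows up to 0.133 to 0.206 CPM per library, counting error only.

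Among 42 other receptors that couple to Gs, 8 were expressed, 10 had counts below the level of expression and 24 were not detected. *Gpr65*, a receptor that senses protons, was the highest at 93.4, 112, 123 and 107 CPM in mice 1 to 4 (181 ± 18.8 TPM). *Calcrl*, the receptor for calcitonin gene-related peptide and adrenomedullin, was at 41.7, 37.5, 44.3 and 38.8 CPM (28.5 ± 2.02 TPM). The prostaglandin E2 receptors *Ptger4* and *Ptger2* were at 28.5, 42.2, 33.7 and 45.5 CPM and at 14.3, 18.4, 11.1 and 19.4 CPM. Both were higher in mice 2 and 4 than in mice 1 and 3. In the treated libraries the test of the mouse described below was passed by 0 of 8 list members tested, against 7.33% of all genes. In TPM the order ran from *Gpr65* over *Calcrl*, *Ptger4* (19.4 ± 3.98), *Ptgir*, the prostacyclin receptor (14.4 ± 2.67), *Ptger2* (10.5 ± 2.57), *Adora2b*, an adenosine receptor (3.35 ± 0.858), *Vipr1* (1.55 ± 0.458) and *Hrh2*, the histamine H2 receptor (0.814 ± 0.226), where the ranges over the 4 mice overlapped between *Ptger4* and *Ptgir*, between *Ptgir* and *Ptger2* and between *Vipr1* and *Hrh2*, but between no other neighbours in this order. Receptors for glucagon, secretin, parathyroid hormone, melanocortins, dopamine (D1-like) and the pituitary glycoprotein hormones were not detected or stayed below 1 CPM. *Calcrl* works only with a partner protein, and of the 3 partners *Ramp1*, which makes it a receptor for calcitonin gene-related peptide, was at 6.26 to 9.08 CPM while *Ramp2* and *Ramp3* were at 0.0561 to 0.343 and 0 to 0.137 CPM.

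Several Gi-coupled receptors stood well above *Gpr65* in TPM. Of 22 leukocyte receptors of this class, 17 were expressed. The anaphylatoxin receptors *C3ar1* (1158 ± 54.1 TPM) and *C5ar1* (758 ± 37.4 TPM) led, before the chemokine receptor *Cxcr4* (479 ± 49.8 TPM). The sphingosine-1-phosphate receptor *S1pr1* (218 ± 6.55 TPM) came next among those named. *Adora1*, the adenosine A1 receptor, was not detected.

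Downstream of the receptors, genes of each step of the cAMP pathway were expressed. Of the G protein α subunits 9 of 16 were expressed. The Gs subunit *Gnas* was at 765, 723, 759 and 693 CPM in mice 1 to 4 and 226 ± 10.9 TPM, the Gi subunit *Gnai2* at 1248 ± 40.7 TPM, and *Gnal*, the second gene of the Gs class, at 0.702 ± 0.293 TPM. *Gnb1*, *Gnb2* and *Gng2* were the leading β and γ genes, at 365, 389 and 287 TPM. The highest adenylyl cyclase was *Adcy7*, at 651, 588, 572 and 583 CPM and 306 ± 21.2 TPM, above *Adcy9* (31.1 ± 3.74 TPM). *Adcy3* and *Adcy2* were lower still (10.9 ± 1.26 and 6.19 ± 0.666 TPM), *Adcy6* lay at 0.547 to 1.57 CPM, and the other 5 cyclase genes were not detected.

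Of the PKA genes 8 of 9 were expressed. The regulatory subunit *Prkar1a* was the highest (265 ± 5.53 TPM), and the catalytic subunits *Prkaca* (139 ± 7.03 TPM) and *Prkacb* (125 ± 4.61 TPM) followed. The type II regulatory subunits *Prkar2a* and *Prkar2b* were at 30.4 and 23.7 TPM. The other cAMP effector, the exchange factor Epac1 (*Rapgef3*), was at 6.997, 6.996, 6.71 and 6.12 CPM in mice 1 to 4, and Epac2 (*Rapgef4*) was at 0 to 0.0497 CPM. Of the phosphodiesterases 10 of 16 were expressed, led by *Pde1b* (61.3 ± 5.64 TPM) and *Pde8a* (49.2 ± 3.31 TPM). *Pde3b*, *Pde4a*, *Pde4b* and *Pde7a* lay close together between 10.3 and 12.9 TPM and did not differ beyond their spread. *Pde4d* (0.547 ± 0.0302 TPM) was the lowest of those expressed, and *Pde4c* was not detected.

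The nuclear end of the pathway was expressed throughout, with 11 of 11 genes. *Creb1* had 13.7 ± 0.532 TPM, *Atf1* 24.99 ± 2.24 TPM and the coactivator *Crtc2* 56.6 ± 4.39 TPM, the highest of the 3 CRTC genes. *Crem* and *Sik1*, both known targets of CREB, were the lowest, at 5.85 ± 0.953 and 5.92 ± 3.61 TPM. *Sik1*, a kinase that restrains CRTC proteins, was at 9.39, 13.2, 1.09 and 11.6 CPM in mice 1 to 4. Mouse 3 thus stood far below the other mice. For switching receptors off, 7 of 8 receptor kinases and arrestins were expressed, with *Arrb2* (657 ± 34.9 TPM) and *Grk2* (423 ± 12.8 TPM) the highest and *Grk5* at 8.95 ± 0.88 TPM. Against 0.0981 for all genes of that level, the median SD of log2 CPM of members with at least 10 CPM was 0.06 for α subunits, 0.08 for PKA genes, 0.07 for receptor kinases and arrestins, 0.11 for the CREB group, 0.13 for phosphodiesterases, 0.17 for adenylyl cyclases and 0.27 for the 5 Gs-coupled receptors at that level. For *Adra1a* the SD was 0.396.

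**Figure D3:**
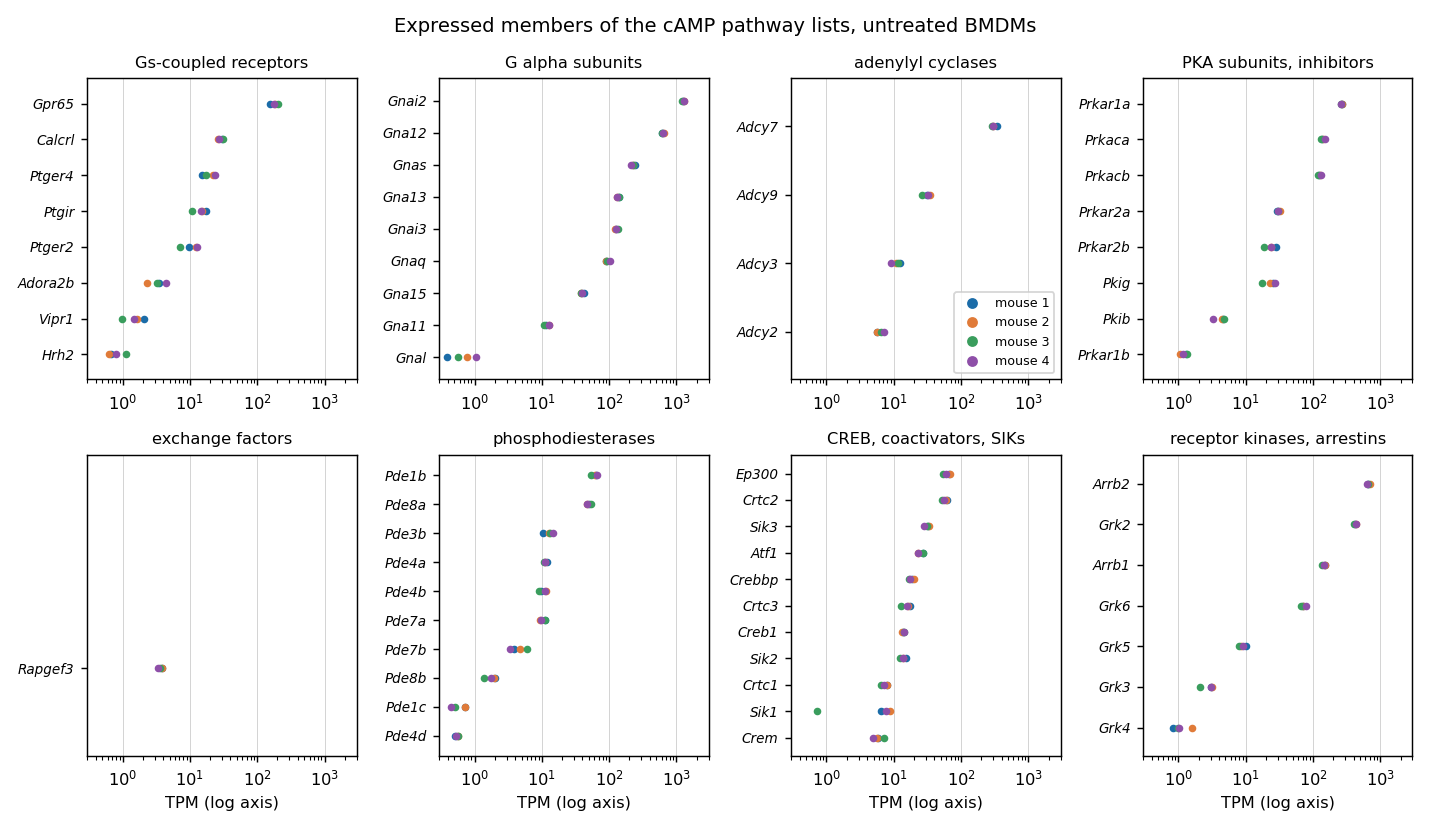
TPM (log axis) of every expressed member of 8 lists of the cAMP pathway in untreated BMDMs, 1 point per mouse. In each step 1 or 2 genes lead (among them *Gpr65*, *Gnai2*, *Adcy7*, *Prkar1a*, *Pde1b* and *Arrb2*), and *Sik1* in mouse 3 falls far from the other mice.

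Sensors of microbes and of cytokines were broadly expressed. Of the pattern-recognition receptors 14 of 16 were expressed, and the endosomal sensors of RNA *Tlr13* (419 ± 41.4 TPM), *Tlr7* (377 ± 42.6 TPM) and *Tlr8* (265 ± 18.8 TPM) stood above *Tlr2* (235 ± 3.08 TPM), *Tlr4* (65.1 ± 8.62 TPM) and *Tlr3* (10.5 ± 1.86 TPM). Of the cytokine receptors 19 of 20 were expressed, from *Tnfrsf1b* (TNF receptor 2, 869.7 ± 54.6 TPM) and *Ifngr1* (472 ± 46.96 TPM) down to *Il13ra1* (6.55 ± 0.37 TPM). The exception was *Il1r1*, the signalling receptor for interleukin-1, at 0.337 to 1.14 CPM.

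To see how far these resting levels held under stimulation, each fenoterol group was compared with the untreated one by edgeR's quasi-likelihood test over 12386 genes with Benjamini-Hochberg adjustment. Both comparisons share the untreated libraries, so they are not independent of each other. At 1 h, 20.1% of the genes tested were called at an adjusted p under 0.05 (10.0% higher and 10.1% lower), and at 4 h 40.0% (19.7% higher and 20.4% lower). With scaling by library size only, 32.5% of the calls at 1 h were higher, against 49.8%. None of the 5 defining markers passed the test at 1 h. At 4 h, 1 was higher and 3 were lower, all by little: *Itgam* had a log2 ratio to untreated of 0.42 (SE 0.05, adjusted p = 7.58e-06), and *Csf1r*, *Adgre1* and *Cd68* of -0.26, -0.21 and -0.22. With the mouse as a block these 3 calls were kept (adjusted p = 3.19e-04, 2.33e-04 and 3.33e-04). In the fit without the block they did not hold without some of the libraries. The call of *Csf1r* was lost without untreated mouse 1, 2 or 4 or 4 h mouse 1, 3 or 4, with adjusted p between 0.0636 and 0.121. That of *Adgre1* was lost without untreated mouse 2 (0.0521) or 4 h mouse 1 (0.0567), and that of *Cd68* without untreated mouse 1 or 4 h mouse 2 or 4, with adjusted p between 0.0885 and 0.0904. *Lyz2*, at -0.18, did not pass (adjusted p = 0.0704), but did with the mouse as a block (adjusted p = 0.00256) and without 4 h mouse 2 (adjusted p = 0.0364).

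Of the lineage transcription factors, 4 of 16 were higher and 6 lower at 1 h, against 20.1% of all genes called in either direction. *Cebpb* moved from 8.59, 11.5, 9.24 and 9.15 CPM in untreated mice 1 to 4 to 60.03, 69.8, 76.8 and 95.7 CPM at 1 h, without overlap. *Cebpa*, in the other direction, moved from 94.1, 117, 95.6 and 106 CPM to 37.01, 39.1, 39.5 and 36.6 CPM at 4 h. The log2 ratio to untreated was 3.05 (SE 0.14, adjusted p = 5.05e-10) for *Cebpb* at 1 h and -1.46 (SE 0.07, adjusted p = 6.26e-10) for *Cebpa* at 4 h. Of the Gs-coupled receptors 2 of 8 were higher and 2 lower at 1 h and 2 of 8 were higher and 3 lower at 4 h. Over all genes 20.1% were called at 1 h and 40.0% at 4 h. *Ptger4* fell to 6.16, 8.09, 7.01 and 7.15 CPM at 1 h, below every untreated library, a log2 ratio to untreated of -2.33 (SE 0.16, adjusted p = 4.08e-08). *Adora2b*, low in untreated cells at 1.86, 1.23, 1.74 and 2.36 CPM, rose to 49.8, 48.7, 42.7 and 49.8 CPM at 1 h, a log2 ratio to untreated of 4.78 (SE 0.14, adjusted p = 5.52e-12). *Calcrl* did not pass at 1 h and fell by 4 h, from 41.7, 37.5, 44.3 and 38.8 CPM to 12.1, 12.03, 12.1 and 15.2 CPM, a log2 ratio to untreated of -1.68 (SE 0.08, adjusted p = 1.14e-09). *Adra1a* likewise fell by 4 h, to 9.51, 3.74, 7.92 and 6.21 CPM, a log2 ratio to untreated of -2.21 (SE 0.25, adjusted p = 4.98e-06).

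Inside the cell, the counts of called members are to be read against the 20.1% of all genes called at 1 h and the 40.0% called at 4 h, and a difference between steps was not tested. Of the α subunits, 1 of 9 were higher and 3 lower at 4 h, the largest fall being that of *Gna12*, with a log2 ratio to untreated of -1.01 (SE 0.06, adjusted p = 5.41e-09). Of the adenylyl cyclases none passed at 1 h, and 2 of 5 were lower at 4 h. *Adcy7* did not pass at either time (adjusted p = 0.543 and 0.272), and *Adcy9* moved from 47.2, 52.7, 39.8 and 48.5 CPM to 16.6, 18.7, 17.8 and 20.8 CPM at 4 h, a log2 ratio to untreated of -1.37 (SE 0.09, adjusted p = 1.79e-08). Of the phosphodiesterases 3 of 11 were higher and 1 lower at 1 h and 6 of 11 were higher and 4 lower at 4 h, with a median log2 fold change at 4 h of 1.25, against 0.00 for all genes. *Pde4b* rose from 29.98, 35.9, 28.1 and 34.8 CPM to 332, 353, 303 and 292 CPM at 1 h and *Pde4d* from 1.77, 1.99, 2.04 and 1.85 CPM to 16.5, 18.2, 14.6 and 16.1 CPM, without overlap. *Pde3b* followed at 4 h, at 209, 304, 254 and 285 CPM, a log2 ratio to untreated of 2.92 (SE 0.15, adjusted p = 1.26e-09). Of the CREB group 3 of 11 were higher and 2 lower at 1 h. *Sik1*, low in untreated mouse 3, was at 242, 259.8, 227 and 236 CPM in mice 1 to 4 at 1 h and at 52.04, 67.9, 43.6 and 50.3 CPM at 4 h, with mouse 3 lowest at both times.

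The 4 untreated cultures were alike for most genes, and the exceptions were few. Over genes with a mean of at least 10 CPM the SD of log2 CPM between mice was 0.0981 in the median, 0.212 at the 90th and 0.516 at the 99th percentile. An SD of at least 0.5 was taken to mark a gene that varied between mice, which held for 95 of 8249 genes (1.15%). At the edge of this rule *Gm12250* lay just inside (SD 0.501) and *Ccna2* just outside (SD 0.499). The mouse farthest from the median of the 4 was mouse 4 for 39 of these genes, mouse 3 for 26, mouse 2 for 19 and mouse 1 for 11. Pseudogenes made up 14.7% of them (14 genes) and 0.376% of all genes with a mean of at least 10 CPM. A stretch of 50 bases shared with a transcript of another gene was present in 56 of the 95.

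**Figure D4:**
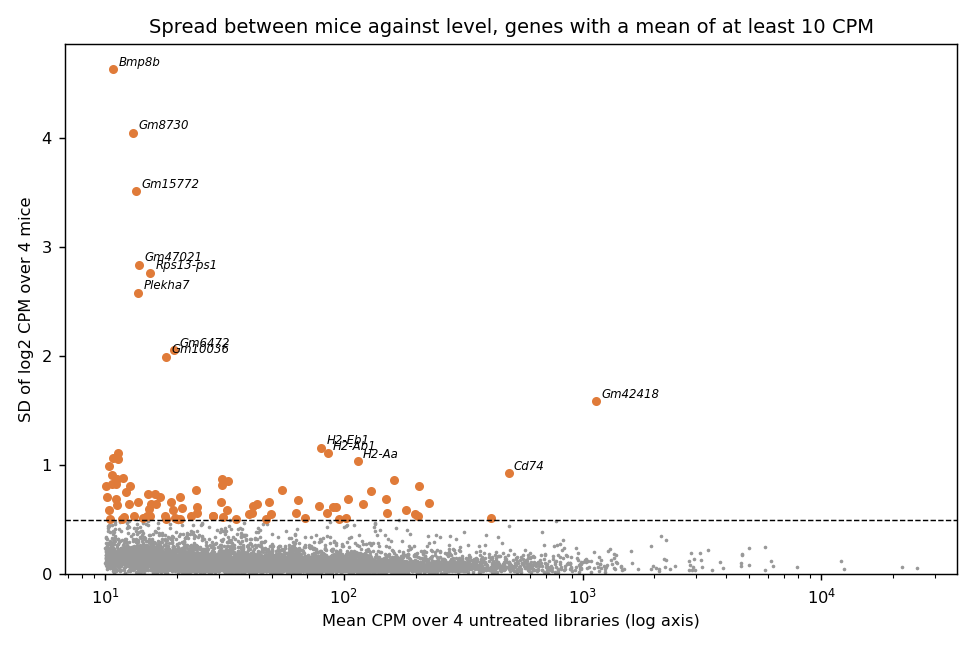
SD of log2 CPM between the 4 untreated mice against mean CPM (log axis) for genes with a mean of at least 10 CPM (grey), with the 95 genes at an SD of at least 0.5 (dashed line) in orange. The 8 largest SDs belong to genes with means under 20 CPM, while *Gm42418* and *Cd74* vary at high level.

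Since the rule chose these genes by their spread in untreated cells, they were tested in libraries it had not used. In the 8 fenoterol-treated libraries of the same mice, edgeR's quasi-likelihood test of the mouse, with treatment time as a covariate, called 7.33% of 12117 genes at an adjusted p under 0.05 and 8.09% of those with a mean of at least 10 CPM in untreated cells. The number called was 888, 339 without mouse 2 and 1565 without mouse 4. Of the 95 genes 93 could be tested and 82 passed, whereas 11 did not. The same mouse was highest in the untreated group and in both treated groups for 54 of the 95 genes, against 17.5% of all genes with at least 10 CPM, and the same mouse was lowest for 50, against 18.7%. All 3 groups of a mouse came from the same bone marrow, so this recurrence covers the animal and its culture together.

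The widest spread of all was that of *Bmp8b* (chr4:123105165-123132099), a secreted bone morphogenetic protein, which reached 1 CPM in 1 mouse only. It had 0.177, 0, 43.1 and 0.0561 CPM in untreated mice 1 to 4, 0.1001, 0, 42.3 and 0.152 CPM at 1 h and 0.108, 0.0542, 41.7 and 0.248 CPM at 4 h. Mouse 3 thus stood at the same level in all groups, and no other library reached 1 CPM. Too few libraries held enough counts for the gene to enter the test. *Plekha7* (chr7:116123485-116308376), a protein of adherens junctions, was low in 1 mouse: it had 13.2, 0.48, 26.1 and 15.4 CPM in untreated mice 1 to 4, with mouse 2 alone below 1 CPM, and 9.91, 0.328, 21.02 and 10.2 CPM at 1 h (mouse effect in treated libraries, edgeR, adjusted p = 4.22e-07). *Casp4* (chr9:5308828-5336783), the caspase that senses cytosolic lipopolysaccharide, was at 5.67, 6.31, 5.86 and 23.6 CPM, high in mouse 4 alone, and at 3.89, 4.77, 5.2 and 22.8 CPM at 4 h (adjusted p = 1.25e-06, and 0.345 without mouse 4). *Acp1* (chr12:30893326-30911589), a small tyrosine phosphatase, had the opposite pattern with 14.8, 12.7, 14.7 and 3.25 CPM and a low value in mouse 4 alone (adjusted p = 9.67e-06, and 0.755 without mouse 4). *Nhej1*, a DNA end-joining factor, split the mice in pairs, with 15.2, 5.01, 16.7 and 5.83 CPM and mice 1 and 3 on the high side (adjusted p = 1.38e-04). The long noncoding RNA *Dubr* was at 6.91, 5.08, 18.8 and 14.03 CPM, higher in mice 3 and 4 (adjusted p = 4.32e-04).

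Of the 20 genes with the largest SD, 8 were pseudogenes, and several moved against the gene they copy. *Gm8730*, a copy of *Rplp0* on chromosome 8, was at 0.0886, 0.206, 0.298 and 51.6 CPM in untreated mice 1 to 4, so that it passed 1 CPM in mouse 4 only. *Rplp0* itself, which encodes a stalk protein of the ribosome, was at 476, 467, 476 and 231 CPM, with mouse 4 alone on the low side. The pattern was the same at 1 h, when *Gm8730* had 0.1001, 0, 0.389 and 59.5 CPM and *Rplp0* 473, 464, 462 and 228 CPM. *Gm15772*, a copy of *Rpl26*, was at 27.2, 25.99, 0.348 and 0.393 CPM and above 1 CPM in mice 1 and 2 only, while *Rpl26* had 55.8, 61.04, 121 and 122 CPM, high in mice 3 and 4 (adjusted p = 4.29e-09 and 3.58e-06 for the mouse in treated libraries). *Gm6768*, a copy of *Ncoa4*, was at 16.3, 3.02, 12.4 and 13.6 CPM, low in mouse 2, whereas *Ncoa4*, the receptor that delivers ferritin to lysosomes, was at 21.6, 39.3, 21.7 and 19.1 CPM and highest in that mouse (adjusted p = 0.00156 and 0.0511, and for *Gm6768* 0.951 without mouse 2). Of the 50-base stretches of *Gm8730*, *Gm15772* and *Gm6768*, 39.5%, 74.3% and 94.5% occur in the partner named here, and how such reads were assigned was not given, so the level of either gene is uncertain. The partners were named after their values were seen.

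The remaining copies were at the following levels. *Gm6472*, a copy of *Rps7*, was at 4.61, 3.15, 3.97 and 65.7 CPM, high in mouse 4, and *Gm10036*, a copy of *Rpl11*, was at 24.2, 24.9, 21.02 and 1.46 CPM, low in mouse 4. The call of *Gm10036* in treated libraries (adjusted p = 2.14e-08) was lost without mouse 4 (0.867). *Gm9625*, a pseudogene that shares 34% of its 50-base stretches with *Gm8730*, was at 8.15, 6.38, 7.95 and 24.8 CPM, high in mouse 4 (adjusted p = 2.64e-05, and 0.795 without mouse 4), as *Gm8730* was. *Rps7* was at 1.2, 1.65, 1.24 and 2.81 CPM, highest in mouse 4 as its copy *Gm6472* was, and *Rpl11* was at 2.3, 2.54, 2.58 and 3.82 CPM, highest in mouse 4, where its copy *Gm10036* was lowest. Both levels were low for genes of ribosomal proteins. *Rps13-ps1* (chr8:87047689-87048226) was at 11.6, 0.412, 33.9 and 15.9 CPM, below 1 CPM in mouse 2 only, as *Plekha7* was. The gene it copies, *Rps13* (chr7:116331505-116334195), lies next to *Plekha7* on chromosome 7 and had 1.37, 1.03, 1.09 and 1.63 CPM. *Gm47021*, which shares sequence with *Dazap2*, was at 20.99, 12.6, 21.7 and 0.337 CPM and nearly absent in mouse 4, while *Dazap2* had 489, 577, 523 and 595 CPM, highest in mouse 4. *Gm42418*, a noncoding RNA annotated over ribosomal RNA sequence, was at 633, 190.2, 2588 and 1133 CPM and at 191, 788, 690.4 and 1444 CPM at 4 h, so that the order of the mice was not kept, although the mouse effect in treated libraries passed (adjusted p = 8.69e-04).

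Genes of antigen presentation by MHC class II varied together between the mice. Their master regulator *Ciita* was at 12.8, 18.1, 3.28 and 9.09 CPM in untreated mice 1 to 4. The class II chains followed it, with *H2-Aa* at 113, 207, 36.7 and 100.2 CPM, *H2-Ab1* at 79.2, 159, 24.9 and 78.7 CPM and *H2-Eb1* at 68.3, 163, 22.8 and 67.2 CPM. *Cd74*, the invariant chain that guides class II through the cell, was at 472, 883, 186 and 419 CPM. Mouse 2 was the highest and mouse 3 the lowest in each of these genes, with mice 1 and 4 between. The peptide-loading genes *H2-DMa* and *H2-DMb1* varied less, at 34.1, 42.3, 21.1 and 29.1 CPM and 29.8, 36.3, 28.97 and 29.6 CPM. Of the 6 genes on the list 4 had an SD of at least 0.5, and the median SD was 1.05, against 0.0981 for all genes with at least 10 CPM.

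In treated cells the order held. At 1 h *H2-Aa* was at 121, 217, 38.7 and 81.9 CPM and *H2-Eb1* at 73.2, 147, 24.6 and 58.03 CPM in mice 1 to 4, and at 4 h *H2-Eb1* was at 52.4, 137, 22.5 and 29.6 CPM. Mouse 2 stayed on top and mouse 3 at the bottom at both times for *Ciita*, *Cd74* and the 3 chains. The test of the mouse in treated libraries was passed by 6 of 6 class II genes (background 7.33%) and by *Cd74*, with an adjusted p of 1.04e-06 for *H2-Aa* and 1.04e-06 for *Cd74*. For *Ciita* it was 5.14e-04, and 0.0767 without mouse 2. Markers of other antigen-presenting cells were at low levels, with the sum of each list lowest in mouse 3, as the class II genes were. The 8 dendritic cell markers summed to 2.97, 3.43, 1.74 and 3.59 CPM in mice 1 to 4 with *Ccr7* at 0. The 7 B cell markers summed to 9.61, 9.94, 7.2 and 10.4 CPM, nearly all of it from *Cd79b*, while *Cd79a* was at most 0.0497 CPM. The part of such cells in the class II differences was not tested.

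Upstream sequences are shown for 2 of these chains because class II promoters are known to share elements that the CIITA complex occupies, among them a Y box read by NF-Y. The RefSeq promoter table (GRCm38.p6) held 4 of the 6 list members, and the 250 bases before the start were searched on both strands for CCAAT, the core of the Y box, and for TGACGTCA, a site of CREB and ATF factors. CCAAT was found in 4 of 4, against 33.9% of all 32851 windows, and TGACGTCA in 1, against 1.55%. A list member counted if any of its windows matched, whereas the background is the share of single windows, so the measures are not quite alike. In *H2-Aa* the CCAAT match lies 48 to 44 bases before the start and TGACGTCA 74 to 67 bases before it, and in *H2-Eb1* CCAAT occurs at 59 to 55 and 35 to 31 bases. A match is a description of the letters and not a shown binding site. The last 200 bases before each start, at chr17:34287824-34288023 (minus strand) and chr17:34305667-34305866 (plus strand), read as follows, 5′ to 3′ on the gene's strand with matches in capitals:
H2-Aa: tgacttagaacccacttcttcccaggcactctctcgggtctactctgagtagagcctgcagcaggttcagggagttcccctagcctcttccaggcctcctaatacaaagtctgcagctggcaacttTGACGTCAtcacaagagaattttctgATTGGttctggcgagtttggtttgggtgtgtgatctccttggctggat
H2-Eb1: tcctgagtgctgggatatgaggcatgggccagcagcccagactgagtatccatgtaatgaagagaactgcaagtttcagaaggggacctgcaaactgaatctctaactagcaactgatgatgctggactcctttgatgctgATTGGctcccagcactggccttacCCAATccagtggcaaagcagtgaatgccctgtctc

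Interferon-stimulated genes, which cells switch on through STAT and IRF factors, also varied together. All 16 on the list were expressed, and their sum was 672, 1052, 1445 and 686 CPM in mice 1 to 4. *Irf7*, the factor that amplifies type I interferon, was at 92.1, 176, 299.9 and 83.3 CPM. *Ifit2*, an inhibitor of viral RNA translation, was at 37.4, 72.6, 104 and 42.98 CPM and *Isg15*, a ubiquitin-like modifier, at 13.2, 26.1, 31.3 and 11.7 CPM. In these 3 genes, as in *Ifit1* (19.8, 34.9, 49.98 and 24.6 CPM), *Rsad2* (23.7, 52.5, 58.6 and 31.1 CPM), *Oasl1* (5.09, 10.9, 17.9 and 6.45 CPM) and *Mx1* (12.2, 24.6, 26.7 and 18.9 CPM), mouse 3 was highest and mouse 2 second. The median SD over the list was 0.53, and 9 of the 15 members with at least 10 CPM passed an SD of 0.5.

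In treated libraries the mouse effect passed for 6 of 16 list members (background 7.33%) and for 3 of the 9 that varied in untreated cells, *Irf7* (adjusted p = 0.00702), *Oasl1* (0.0194) and *Oasl2* (0.0318). *Irf7* was at 146, 163, 342 and 119.9 CPM at 1 h and 227, 202, 388 and 309 CPM at 4 h, with mouse 3 highest each time. *Ifit2* did not pass (adjusted p = 0.37), with 71.5, 38.4, 71.9 and 34.4 CPM at 1 h and 25.8, 19.5, 36.3 and 53.9 CPM at 4 h, when mouse 4 was highest. *Isg15* (adjusted p = 0.147), *Rsad2* (0.235), *Ifit1* (0.214) and *Mx1* (0.25) did not pass either. The difference in recurrence between the 2 groups of genes was not tested.

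Upstream sequences of 3 of these genes are shown because interferon-responsive promoters are known for the ISRE, the element that STAT and IRF complexes bind. Its core was searched as GAAA, any 2 bases and GAAA again, on both strands in the 250 bases before the start, overlapping matches allowed. The promoter table held 10 of the 16 members, and 5 of them had a match (*Ifit1*, *Ifit3*, *Isg15*, *Oas1a* and *Rsad2*), against 2.98% of all windows. Here too members were counted as genes and the background as single windows. *Isg15* had 3 overlapping matches between 78 and 57 bases before the start, *Ifit1* had matches at 104 to 95 and 85 to 76 bases, and *Rsad2* 1 match at 120 to 111 bases. The 200 bases before each start lie at chr4:156200819-156201018 (minus strand), chr19:34640689-34640888 (plus strand) and chr12:26456453-26456652 (minus strand) of GRCm38.p6, with matches in capitals:
Isg15: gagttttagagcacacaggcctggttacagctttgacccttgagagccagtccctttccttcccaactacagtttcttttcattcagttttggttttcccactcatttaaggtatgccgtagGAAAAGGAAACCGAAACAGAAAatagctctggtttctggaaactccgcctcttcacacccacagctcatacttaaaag
Ifit1: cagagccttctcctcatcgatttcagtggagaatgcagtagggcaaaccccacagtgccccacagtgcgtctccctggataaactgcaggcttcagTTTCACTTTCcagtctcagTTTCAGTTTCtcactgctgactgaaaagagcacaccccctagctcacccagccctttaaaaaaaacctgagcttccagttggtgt
Rsad2: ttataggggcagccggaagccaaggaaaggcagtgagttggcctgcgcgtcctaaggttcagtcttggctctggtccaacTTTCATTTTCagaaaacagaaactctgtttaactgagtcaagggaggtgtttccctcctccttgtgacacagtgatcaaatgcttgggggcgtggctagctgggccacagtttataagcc

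Genes of the cell cycle also differed between the mice. All 16 listed genes were expressed and their sum was 854, 551, 881 and 716 CPM in mice 1 to 4, lowest in mouse 2. *Top2a*, the topoisomerase of dividing cells, was at 119, 57.1, 119 and 85.7 CPM, *Mki67* at 176, 86.8, 144 and 126 CPM and *Rrm2*, the ribonucleotide reductase subunit made in S phase, at 18.1, 6.58, 20.2 and 15.5 CPM. Mouse 2 was the lowest in each. Only 2 of the 15 members with at least 10 CPM had an SD of at least 0.5, but the median SD of the list was 0.34. The mouse effect in treated libraries passed for 14 of 16 members (background 7.33%), for *Top2a* with an adjusted p of 1.93e-04. Other mitotic genes that varied by the rule, namely *Bub1*, *Pttg1*, *Ccnf*, *Kif11*, *Spag5*, *Hmmr*, *Ckap2l*, *Tpx2* and *Cip2a*, were also lowest in mouse 2 (named after their values were seen).

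Genes of cholesterol synthesis, which SREBP2 controls, were in sum highest in mouse 1. Of the list 9 of 10 were expressed, and they summed to 764, 523, 526 and 635 CPM in mice 1 to 4. *Hmgcs1*, which makes the precursor of mevalonate, was at 114, 78.1, 76.8 and 103 CPM. *Cyp51*, a demethylase late in the pathway, was at 56.6, 34.2, 37.3 and 45.1 CPM. Mouse 1 was highest and mouse 4 second in both, with mice 2 and 3 below. None of the list reached an SD of 0.5, and the median SD was 0.28. In treated libraries the sum was 1262, 764, 862 and 851 CPM at 1 h and 1606, 1132, 1075 and 1049 CPM at 4 h, and the test of the mouse was passed by 9 of 10 members (background 7.33%), *Hmgcs1* with an adjusted p of 1.08e-04.

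The matrix genes *Col1a1*, *Col1a2*, *Bgn* and *Fn1* and the actin gene *Acta2*, which varied, were all highest in mouse 1 and lowest in mouse 4, the order of the fibroblast list given above. Among other genes, named after their values were seen, *Lima1*, an actin-binding protein, was at 267, 201, 276 and 83.3 CPM, low in mouse 4 (adjusted p = 1.36e-07), the lysosomal sulfatase *Arsb* at 118, 120.2, 115 and 254 CPM, high in mouse 4 (adjusted p = 2.78e-06), and *Cers4*, a ceramide synthase, at 40.3, 37.4, 12.1 and 40.6 CPM, low in mouse 3 (adjusted p = 1.04e-06). For *Arsb*, 39.9% of the exon bases are also covered by a gene on the other strand, and the strand option of the counting was not given. *Hspa8*, the constitutive heat shock protein 70, was at 36.2, 38.5, 36.7 and 108 CPM, high in mouse 4, but 38.6% of its 50-base stretches occur in other genes. *F13a1*, the A chain of clotting factor XIII, was at 186, 257, 121 and 346 CPM, lowest in mouse 3 and highest in mouse 4. The plots of single genes by group show which of these differences between mice returned after treatment.

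Some of the varying genes lie beside each other in the genome. *Gcn1l1*, an activator of the kinase GCN2 (chr5:115565254-115622654), lies directly beside *Rplp0* (chr5:115559467-115563727) and was at 71.03, 80.2, 60.3 and 160.0 CPM in mice 1 to 4, high in mouse 4 where *Rplp0* was low (adjusted p = 8.51e-05). *Spats2* (chr15:99125916-99213215) lies within 1 Mb of *Lima1* (chr15:99778470-99875456) and was at 5.93, 9.88, 6.91 and 17.8 CPM, again high in mouse 4 while *Lima1* was low (adjusted p = 2.49e-05). *Clec16a* (chr16:10545339-10744878), an autophagy gene next to *Ciita*, was at 55.1, 50.5, 26.5 and 28.3 CPM and divided the mice differently from *Ciita*, with mice 1 and 2 high (adjusted p = 5.14e-05). Of the nonclassical MHC class I genes of chromosome 17, *H2-Q6*, *H2-Q7*, *H2-T10* and *H2-T24* varied by the rule and all passed in treated libraries, but 31.97%, 26.4%, 32.9% and 3.17% of their 50-base stretches occur in other genes, so that the levels are uncertain. These neighbours were picked after their values were seen, and how many neighbours a random set of genes would hold was not tested.

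The 11 varying genes that did not pass in treated libraries were mostly genes of the interferon response. They were *Isg15*, *Ifit2*, *Ifit3*, *Rsad2*, *Ifit1*, *Ifi211*, *Ifi209*, *Acta2*, *Cip2a*, *Mx1* and *Gm12250*, and their adjusted p lay between 0.0632 and 0.37. *Ifi209*, *Ifi211* and the interferon-inducible GTPase gene *Gm12250* are further members of that programme, while *Acta2* is smooth muscle actin and *Cip2a* an inhibitor of a protein phosphatase. A p above the threshold in 8 libraries does not show that the mice were alike.

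**Figure D5:**
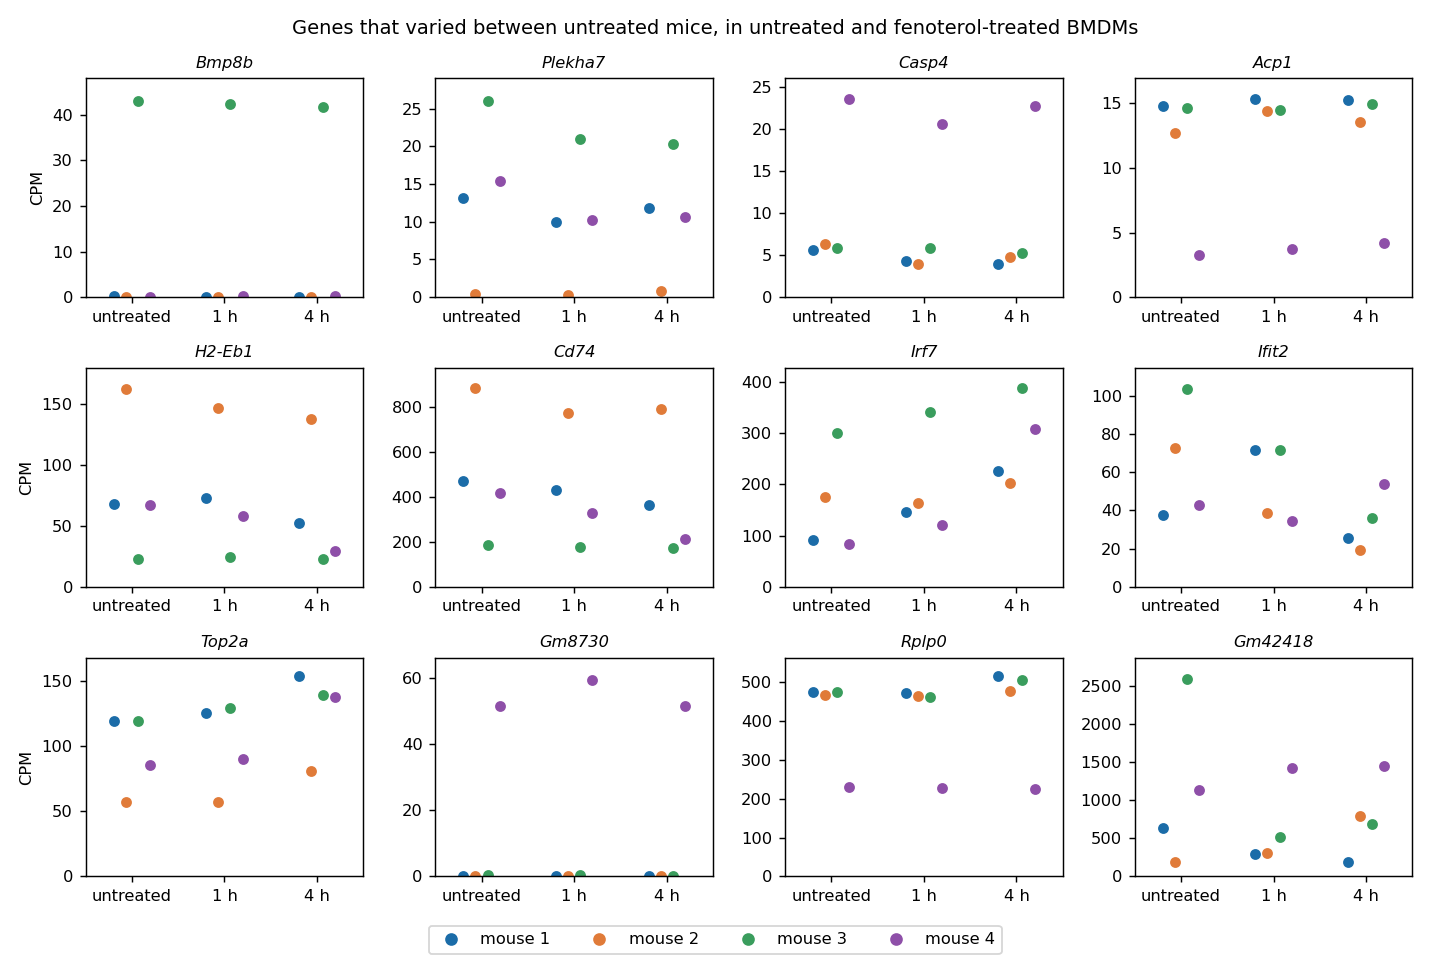
CPM of 12 genes that varied between untreated mice, in untreated BMDMs and after 1 h and 4 h of fenoterol, 1 point per mouse and group. *Bmp8b*, *Plekha7*, *Casp4*, *Acp1*, *Gm8730* and *Rplp0* keep the same mouse apart in all 3 groups, *H2-Eb1*, *Cd74* and *Irf7* keep the same highest mouse, *Top2a* keeps the same lowest mouse, and *Ifit2* and *Gm42418* do not.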

How the data were processed

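RNA was sequenced as single 50-base reads from a stranded mRNA kit on 1 lane, in libraries from BMDMs of 4 mice in 3 groups. The authors aligned reads with TopHat2 2.0.11 to GRCm38 and deposited the raw count of each gene from HTSeq 0.8.0, and the study then used vsn and limma. The strand option, the annotation release and the handling of reads with several matches were not given in the sources used here. Every per-sample column was used (columns left unused: 0).

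From these counts, CPM (count divided by the library total) and TPM (union exon length of GENCODE M21, which matched all but 105 of the 53379 genes, the rest holding 0.00432% of the counts) were computed in Python 3.11.15 with pandas 2.3.3. The SD between mice was taken on log2((count + 0.5)/(total + 1) × 1000000). Tests used edgeR 4.0.16 (R 4.3.3) in quasi-likelihood mode with TMM scaling, filterByExpr and Benjamini-Hochberg adjustment at 0.05: each fenoterol group against untreated in 1 fit of all 12 libraries, and the mouse in the 8 treated libraries with time as covariate. The scripts were tested on simulated data. Counts called for edgeR rather than vsn and limma. Alternatives were DESeq2 1.42.0, other scalings and filters, the mouse as a block, and leaving out each library.

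Same-numbered columns come from the same mouse by the series' design. Deviations from group means correlated at r = 0.497 to 0.762 in the 12 pairs of libraries of 1 mouse and -0.476 to 0.121 in 36 pairs of different mice. Deviations from the mean of 4 mice sum to 0, so the computation itself pushes the values for different mice down. Named are the 5 defining markers, the 20 genes highest in CPM and 10 in TPM, members of the described lists, the 20 genes with the largest SD, and a few genes said to be picked after their values were seen. Members and lists were chosen with earlier results of these data known, and some genes are not reported here. Intervals and floors cover counting error only. The p-values of the fenoterol comparisons set a difference against the spread between the cultures within a group. Those of the mouse test set the difference between mice against the scatter between the 1 h and 4 h libraries of the same mouse. They do not measure the spread between cultures.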

Additional observations from a re-analysis of the deposited data

Results flagged for a closer look

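In 11 of 150 screened sets of 4 untreated values, 1 mouse lay so far from the others that its gap to the nearest, divided by the whole range, exceeded Dixon's 95% limit for 4 samples. Chance alone flags about 1 in 20 sets picked without regard to their spread, or 7.5 of this number. Some of the sets were chosen by their spread, so the 11 cannot be weighed against the 7.5. The gap was 0.996 of the range for *Bmp8b*, where mouse 3 stood apart with 43.1 CPM. Mouse 4 stood apart for *Gm8730* (0.996), *Gm6472* (0.977), *Casp4* (0.964), *Gm9625* (0.904) and, on the low side, *Gm10036* (0.834). These genes are among the 20 with the largest SD, and were chosen by their spread in these libraries.

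In genes with little spread the same rule marked small gaps. *Selenop* was at 8497 CPM in mouse 2 and at 7691 to 7783 CPM in the others (gap 0.886 of the range), and *Laptm5* at 3354 CPM in mouse 4 against 3526 to 3548 CPM (0.885). The G protein γ subunits *Gng2*, at 384 CPM against 359.8 to 361 CPM (0.947), and *Gng11*, at 7.8 CPM against 5.4 to 5.76 CPM (0.851), were highest in mouse 3. The summed CPM of the 42 Gs-coupled receptors was lowest in mouse 1, at 202 CPM against 229 to 232 CPM (0.918).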

How the results depend on the processing

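The number of expressed genes, 10882, lay between 9118 and 11477 under other level cut-offs and scalings, and at 10936 to 10950 when 1 mouse was left out. The 10 leading genes held 10.8% of CPM but 16.7% of TPM. The number of varying genes, 95, depended on the level required: 466 with a mean of at least 1 CPM and 27 with at least 50 CPM. In 2 alternatives chosen after seeing the data it was 77 among protein-coding genes and 39 among genes with no shared 50-base stretch, where fewer genes could enter. Leaving out 1 mouse gave 87 to 107. Genes differing between mice in treated libraries numbered 888, 1732 without a filter on low counts, 1721 in all 12 libraries and 339 to 1565 with 1 mouse left out. The cause was not tested. With library-size scaling the calls at 1 h rose from 2493 (49.8% higher) to 2918 (32.5% higher), as the median of all genes shifted by -0.07 on the log2 scale.

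With the mouse as a block, the calls numbered 3348 at 1 h and 5870 at 4 h, against 2493 and 4958, and the pairing changed 1 of 42 calls of named genes, that of *Lyz2* at 4 h. DESeq2 also called *Lyz2* at 4 h (adjusted p = 0.0492), and its adjusted p ranged from 0.00256 to 0.189 over all alternatives. The counts by list given above are from the fit without the block. With it, 5 transcription factors were higher and 8 lower at 1 h, and 3 Gs-coupled receptors were higher and 2 lower. At 4 h, 2 α subunits were higher and 4 lower, while the phosphodiesterases stayed at 6 higher and 4 lower. Of 588 alternative values for 42 named fenoterol comparisons 11 lost and 3 gained a call, and 0 changed sign. Of 162 values for 18 genes tested for the mouse 6 lost it.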

Other observations

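Several further gene groups of resting BMDMs were measured. Of the lipid storage genes 14 of 16 were expressed, led by *Plin2*, the coat protein of lipid droplets, at 725 ± 15.6 TPM (SD, n = 4 mice), with the triglyceride lipase *Pnpla2* at 189.6 ± 11.4 TPM and the cholesterol esterifying enzyme *Soat1* at 128 ± 7.88 TPM. *Dgat1*, which makes triglycerides, had 18.9 ± 1.41 TPM. Its counterpart *Dgat2* was at 3.76, 5.62, 4.47 and 0.393 CPM in mice 1 to 4, with mouse 4 far below the others, and the test of the mouse in treated libraries passed (edgeR, adjusted p = 0.00387). The phosphatidate phosphatase *Lpin1*, at 107, 93.8, 85.5 and 53.5 CPM, was also lowest in mouse 4 (adjusted p = 7.46e-04). In all, 6 of 16 lipid storage genes passed that test, against 7.33% of all genes tested. *Sik1*, low in untreated mouse 3, passed it too (adjusted p = 0.0455), although after 1 h the mice lay close together. *Dgat2*, *Lpin1* and *Sik1* were singled out after their values were seen.

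Of the nuclear receptors 11 of 17 were expressed, with the liver X receptor *Nr1h2* (110.3 ± 6.32 TPM) above its relative *Nr1h3* (15.1 ± 1.14 TPM), the fatty acid sensor *Pparg* at 64.5 ± 5.03 TPM, *Ppard* at 25.2 ± 2.2 TPM and the glucocorticoid receptor *Nr3c1* at 63.5 ± 3.93 TPM, while *Ppara* was not detected. Of the integrated stress response genes 8 of 9 were expressed, *Atf4* at 189 ± 9.88 TPM and *Ddit3* (CHOP) at 80.6 ± 15.6 TPM, and *Chac1* stayed at 0.137 to 0.298 CPM. Of the A-kinase anchoring proteins, which hold PKA at its sites in the cell, 7 of 13 were expressed, with *Akap10* (55.3 ± 3.2 TPM) and *Akap13* (47.2 ± 4.39 TPM) the highest. The test of the mouse was passed by 1 of 15 nuclear receptors, 1 of 8 stress response genes and 0 of 9 anchoring proteins.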
